A study of Mus musculus with 3 samples.

Results

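The genes of fibroblast growth factor (FGF) signalling in the mouse midbrain, called FGF genes here, were taken by symbol: the ligand genes named Fgf with a number, the receptor genes Fgfr1 to Fgfr4 and Fgfrl1, the Sprouty and Spred genes, Dusp6, and Etv1, Etv4 and Etv5. The rule used names alone and no measured value, although it was chosen with earlier results of these data known. It found 37 of the 49585 genes listed. They comprised 18 secreted ligands, 4 intracellular FGFs, 5 receptors, 7 feedback inhibitors and 3 target transcription factors. RNA sequencing of total RNA from the midbrain of C57BL/6 mice on postnatal day 3 gave 2 libraries of mice labelled FGR, a genotype label that is not spelled out, and 1 library of a wild-type (WT) mouse. Both groups shared strain, age and tissue, and no other allele, treatment or pooling is given for either. The comparison asked how FGF signalling genes differed between FGR and WT midbrain.

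Secreted FGFs bind receptor tyrosine kinases together with heparan sulphate. The receptor passes the signal through adaptor proteins to the RAS and ERK kinase cascade. ERK signalling induces Dusp6, the Sprouty genes and the ETS factors Etv4 and Etv5, so the transcripts of these genes are widely used as a readout of FGF and other receptor tyrosine kinase signalling, and the Sprouty, Spred and Dusp6 proteins restrain the same cascade. In the embryo, FGF8 and its close relatives pattern the midbrain from the midbrain-hindbrain boundary, while intracellular FGFs are not secreted and act on ion channels in neurons. Etv1 belongs to the same ETS family as Etv4 and Etv5.

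The promoters of the ERK-induced feedback inhibitors Dusp6 and Spry2, the most abundant per length of this kind among the genes with a promoter sequence at hand, show the kind of sequence through which ETS factors act. ETS factors bind around a GGAA core, and the letters CGGAA were searched on both strands. Both windows span 250 bases before to 50 bases after the RefSeq gene start, are written 5′ to 3′ on the strand of the gene, and carry CGGAA, or TTCCG for the other strand, in capitals. They come from RefSeq on GRCm38.p6, Dusp6 from chr10:99262981-99263280 on the plus strand and Spry2 from chr14:105896770-105897069 on the minus strand.
Dusp6: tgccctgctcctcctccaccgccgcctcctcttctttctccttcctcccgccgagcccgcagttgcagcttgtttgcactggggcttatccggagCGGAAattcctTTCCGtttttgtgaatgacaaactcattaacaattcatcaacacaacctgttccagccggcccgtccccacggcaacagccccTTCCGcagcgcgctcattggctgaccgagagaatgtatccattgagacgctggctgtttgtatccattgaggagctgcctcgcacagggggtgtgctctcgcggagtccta
Spry2: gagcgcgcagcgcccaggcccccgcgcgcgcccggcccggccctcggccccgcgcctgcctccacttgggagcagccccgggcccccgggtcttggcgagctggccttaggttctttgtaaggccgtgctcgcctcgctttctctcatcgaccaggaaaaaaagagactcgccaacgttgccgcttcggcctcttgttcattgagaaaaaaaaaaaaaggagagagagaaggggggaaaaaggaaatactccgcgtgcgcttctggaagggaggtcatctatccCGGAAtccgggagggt
The Dusp6 window held 3 matches and the Spry2 window 1. Of the 28 FGF genes with a promoter window, 10 held a match, against 32.7% of 27025 genes in the table, so the letters were about as frequent as elsewhere. The longer form CCGGAA, which contains CGGAA, was held by 5 of the 28, Spry2 among them, against 16.7% of all genes. A match is a string of letters and not a measured binding site.

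Total counts were 58444481 and 46240262 in the FGR libraries and 52874311 in the WT library. With 1 WT library no spread was measured among WT mice, and any feature of that library cannot be told apart from the group. Xist and the Y-linked gene Ddx3y showed a female FGR replicate 1, a male FGR replicate 2 and a female WT library (34285, 78 and 29129 Xist counts), so sex cannot be told apart from the replicate within FGR. Regional genes of the midbrain were present in all 3 libraries, and 6 of 12 were called higher in FGR and 0 lower. Of 14 genes of hypothalamus and ventral forebrain 11 were called lower, with a summed level of 13.8 and 14.1 CPM in the FGR libraries and 63.5 CPM in WT, and Nkx2-4, Six6 and Oxt at 0 counts in both FGR libraries. Of 9 tested hindbrain genes 5 were called higher, with sums of 70.7 and 57.1 CPM in FGR and 21.6 CPM in WT. Leptomeningeal genes were called lower in 9 of 12 cases, with sums of 371.7 and 605.6 CPM in FGR and 947.1 CPM in WT, and astrocyte and radial glia genes in 6 of 12. Oligodendrocyte precursor genes were called lower in 3 of 8 cases (sums of 358.1 and 374.0 CPM in FGR and 457.6 CPM in WT) and microglia genes in 4 of 8 (81.2 and 90.3 CPM in FGR and 122.2 CPM in WT). Of the 8 neuronal and 7 choroid plexus genes 0 were called. Over all 25561 genes tested, 1.66% were called higher and 2.59% lower. The lists were chosen with earlier results of these data known, so their counts describe the libraries and are not independent evidence. The part of these tissue differences in the FGF results was not tested. In bulk tissue, fewer cells of a type and less RNA per cell cannot be told apart.

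None of the 32 FGF genes with enough reads for a test was called different between FGR and WT midbrain. Called means an adjusted p under 0.05 in edgeR's quasi-likelihood test, adjusted by the Benjamini-Hochberg method over all 25561 genes tested, of which 4.25% were called. A background share this small leaves few calls to be seen among 32 genes, so the count of 0 does not set the FGF genes apart from other genes. At an unadjusted p under 0.05 there were 4 FGF genes (Fgf1, Fgf3, Fgf5 and Fgf12), against 18.3% of all genes tested. DESeq2 called 0 of the 22 FGF genes to which it gave an adjusted p. It called 0.999% of the 35837 genes with a p-value, which include genes without an adjusted p, so the 2 bases differ. In limma-voom 0 of 32 were called, with 4.24% of all genes called. When no filter on low counts was applied, edgeR called Fgf3 alone. The fit had 1 residual degree of freedom, from the FGR pair, so the WT library was assumed to vary as the FGR libraries did. Whether each library is a separate animal or litter is not labelled, so the p-values cover no more than the spread of these samples, which may be technical in part.

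The fitted intervals say how large a change the data allow, given that assumption. Of the 32 tested genes, 19 had a 95% interval of the fold change that lay within 1.5-fold in either direction (59.4%, against 50% of all genes tested). These were 18 of the 19 intracellular FGFs, receptors, feedback inhibitors and target factors, but only 1 of the 13 tested secreted ligands, Fgf2. All 19 were among the 26 FGF genes at a mean of at least 1 CPM (counts scaled to a common library size, with TMM factors from edgeR), a level at which 68.5% of all tested genes had such an interval. The remaining receptor gene, Fgfr4, had 14 to 26 counts per library. The median log2 fold change of the 32 genes was -0.10, against 0.01 over all genes tested. Both FGR libraries lay below WT for 15 of the 32 genes, against 38.2% of all genes tested. Both lay above WT for 6, against 38.5%. WT lay between the FGR libraries for the other 11, and between or level with them for 23.3% of all genes tested.

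**Figure D1:**
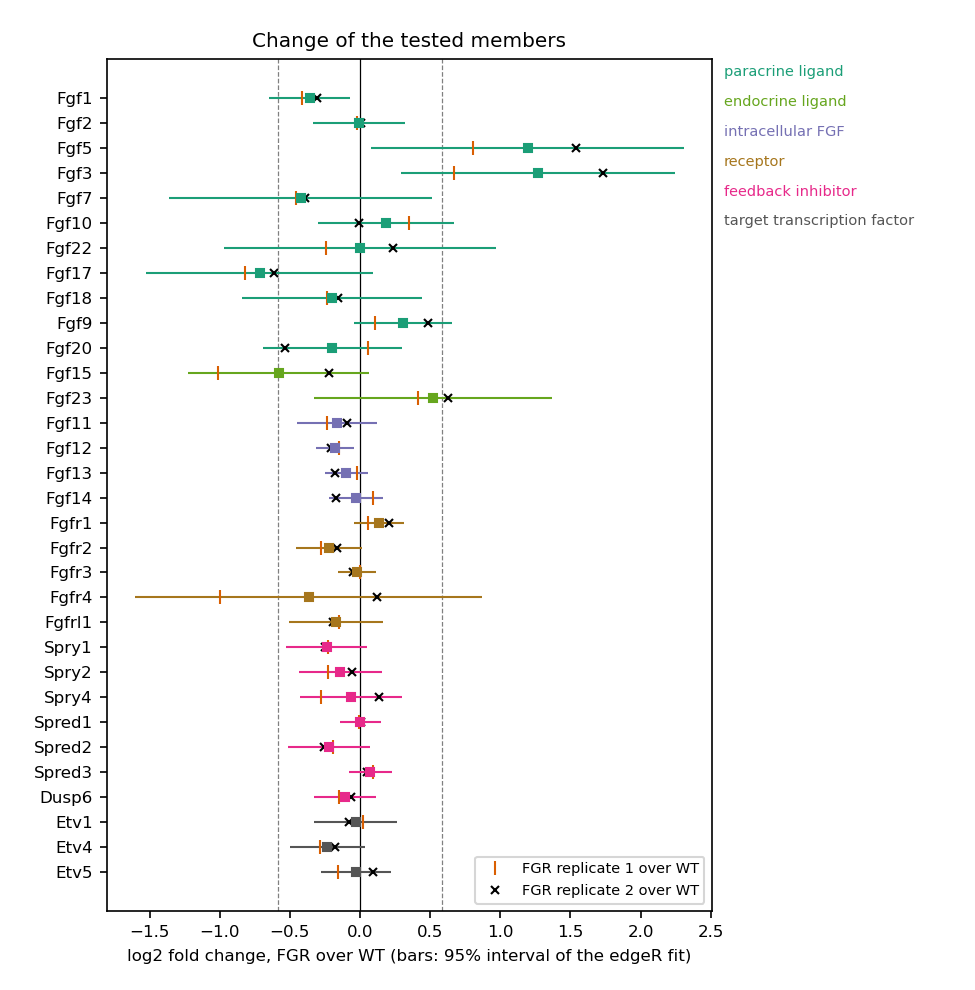
Log2 fold change of FGR over WT for the 32 tested FGF genes (squares, coloured by role) with the 95% interval of the edgeR fit, and the ratio of each FGR library to WT (orange bars and black crosses); dashed lines mark 1.5-fold. Intervals are narrow for intracellular FGFs, receptors other than Fgfr4, and feedback genes, and wide for most secreted ligands, with Fgf3 and Fgf5 farthest to the right.

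**Figure D2:**
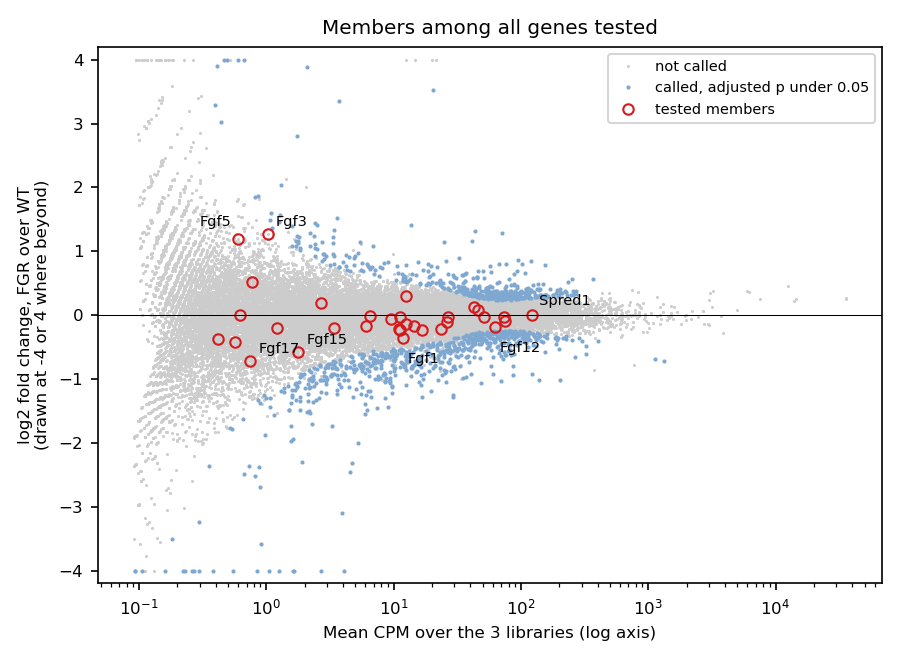
Log2 fold change of FGR over WT against mean CPM (log axis) for all 25561 genes tested, with called genes in blue and the 32 tested FGF genes as red circles. The FGF genes lie within the grey cloud of genes that were not called, and those farthest from 0 have a mean of about 1 CPM or less.

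Levels of different genes are compared here by the deposited RPKM (a read count scaled to the gene's length and the library's total). The intracellular FGF genes Fgf12 and Fgf13 and the inhibitor gene Spred1 were the most abundant FGF genes, with means over the 3 libraries of 20.6, 18.8 and 18.1 RPKM. Fgf14 followed with 12.3 RPKM, Fgfr3 with 10.2 RPKM and Dusp6 with 9.45 RPKM. The secreted ligand with the highest mean, Fgf9, had 2.91 RPKM, less than each of the 4 intracellular FGF genes. In WT alone Fgf1 stood above Fgf9, at 3.06 against 2.57 RPKM. Fgf4 and Fgf6 had 0 counts in every library, which allows a level of up to 0.0517 and 0.0656 CPM in the FGR libraries and 0.0557 CPM in WT (3 counts of each total, for counting error only). Where the authors' length includes long untranslated regions, RPKM values are low for reasons of length, so gaps between genes of very different length are approximate.

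**Figure D3:**
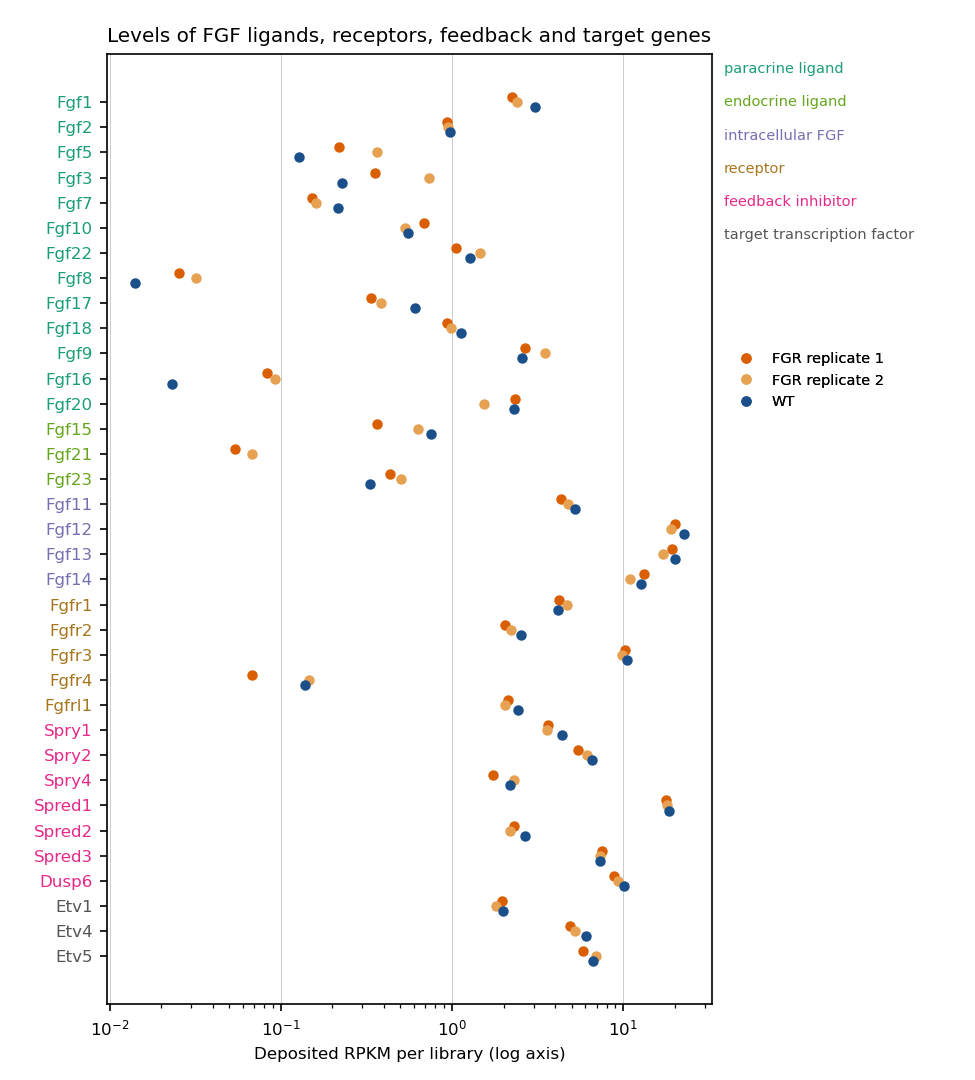
Deposited RPKM (log axis) of the FGF genes in FGR replicate 1, FGR replicate 2 and WT, with gene names coloured by role. Fgf4 and Fgf6 were at 0 and are not drawn, and neither is the WT value of Fgf21, which was 0. The 3 points of a gene lie close together for most genes above 1 RPKM, and the points range from 0.0140 RPKM (Fgf8 in WT) to 22.8 RPKM (Fgf12 in WT).

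The secreted ligands were led by Fgf9, Fgf1 and Fgf20 in all 3 libraries. Fgf9, a ligand made by neurons that acts on FGFR3 among others, had 11.5 and 15.0 CPM in the FGR libraries and 10.8 CPM in WT. The FGR libraries were both above WT, FGR replicate 1 only slightly (log2 fold change 0.30 ± 0.16 (SE), edgeR adjusted p = 0.348). Fgf1, a ligand without a classical secretion signal that binds all receptors of the family, had 10.5 and 11.3 CPM in FGR and 14.0 CPM in WT. Both FGR libraries were below WT and close to each other, and the log2 fold change was -0.36 ± 0.14 (SE, unadjusted p = 0.0185, edgeR adjusted p = 0.163). The ratio of Fgf9 to Fgf1 on the RPKM scale, which no scaling between libraries can alter, was 1.20 and 1.45 in FGR and 0.838 in WT. Fgf20, of the same subfamily as Fgf9 and known for supporting dopamine neurons, had 3.93 and 2.60 CPM in FGR and 3.77 CPM in WT. For Fgf20 the FGR libraries lay on both sides of WT, and their gap to each other (1.51-fold) exceeded that of FGR replicate 1 to WT. Fgf2, the classical mitogen of neural progenitors, had 6.41 and 6.54 CPM in FGR and 6.52 CPM in WT, with a 95% interval of the fold from 0.791 to 1.25.

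Ligands of the FGF8 subfamily were low. Fgf8 itself, the organiser signal of the embryonic midbrain-hindbrain boundary, had 2 and 2 counts in FGR and 1 count in WT. The ratio of FGR to WT was 2.08 with an exact 95% counting interval from 0.205 to 102, so no difference of Fgf8 could be seen at this depth. Fgf17, which is also expressed at the boundary in the embryo, had 33 and 30 counts (0.569 and 0.656 CPM) in FGR and 54 counts (1.00 CPM) in WT. Both FGR libraries were below WT, and the fitted log2 difference was -0.72 ± 0.38 (SE, edgeR adjusted p = 0.339). Fgf18 had 1.12 and 1.18 CPM in FGR and 1.32 CPM in WT.

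Fgf3 and Fgf5 had the largest fold changes of all tested FGF genes, on few reads. Fgf3, a ligand expressed in the embryonic hindbrain, had 48 and 79 counts (0.827 and 1.73 CPM) in FGR and 28 counts (0.520 CPM) in WT. FGR replicate 2 stood well above FGR replicate 1, which was itself above WT, and the log2 fold change was 1.27 ± 0.46 (SE, unadjusted p = 0.0146, edgeR adjusted p = 0.145). The adjusted p of Fgf3 ranged from 0.0129, without a filter on low counts, to 0.255 over 6 alternatives. Fgf5, known as a brake on hair growth, had 32 and 42 counts (0.551 and 0.918 CPM) in FGR and 17 counts (0.316 CPM) in WT. The order of the libraries was the same as for Fgf3, and the log2 fold change was 1.19 ± 0.52 (SE, unadjusted p = 0.0378, edgeR adjusted p = 0.236). Hindbrain genes were higher in FGR as given above, and Hoxb3 stood in the same order, at 19 and 75 counts in FGR and 2 in WT. Hoxa2 did not, at 52 and 25 counts in FGR and 2 in WT. The part of hindbrain tissue in the Fgf3 and Fgf5 values was not tested.

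Other ligands of the FGF7 subfamily, which signal mostly from mesenchyme to epithelium in other organs, showed little. Fgf10, which is made by cells of the hypothalamus among other sites, had 3.17 and 2.47 CPM in FGR and 2.49 CPM in WT, so FGR replicate 2 was level with WT. The sums of hypothalamic and ventral forebrain genes, given above, were lower in both FGR libraries. Fgf7 had 0.500 and 0.525 CPM in FGR and 0.687 CPM in WT. Fgf22, a ligand that organises presynaptic terminals, had 30 and 33 counts in FGR and 33 in WT, a log2 fold change of 0.00 ± 0.45 (SE) whose interval spans 0.511-fold to 1.96-fold.

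Among the endocrine ligands, which need Klotho co-receptors, Fgf15 had the highest mean over the 3 libraries (0.583 RPKM), although in FGR replicate 1 Fgf23 was higher (0.434 against 0.364 RPKM). Fgf15, the mouse counterpart of human FGF19, had 65 and 89 counts (1.12 and 1.95 CPM) in FGR and 122 counts (2.27 CPM) in WT. Both FGR libraries were below WT, but FGR replicate 2 was nearer to WT than to FGR replicate 1, and the log2 fold change was -0.58 ± 0.30 (SE, with edgeR adjusted p = 0.329). Fgf23, the phosphate-regulating hormone made mainly in bone, had 46 and 42 counts in FGR and 32 in WT (log2 fold change 0.52 ± 0.39 (SE), edgeR adjusted p = 0.544). Fgf21, a metabolic hormone made mainly in liver, had 3 and 3 counts in FGR and 0 in WT, within what a floor of 3 counts per library leaves undecided. Fgf16 of the FGF9 subfamily was also too low for the test, with 8 and 7 counts in FGR and 2 in WT, a ratio of 3.89 with a counting interval from 0.905 to 35.1. Fgf3, Fgf4 and Fgf15 are direct neighbours on chromosome 7 in RefSeq, with 0 other coding genes between them. Fgf4 was at 0 counts. The ratio of Fgf15 to Fgf3 on the RPKM scale was 1.03 and 0.857 in FGR and 3.31 in WT, where Fgf3 had 28 counts. No interval was computed for this ratio. Of the 3058 bases of Fgf15, 761 are shared with an opposite-strand transcript, whose reads cannot be told apart without strand. Both Fgf3 and Fgf15 were higher in FGR replicate 2 than in FGR replicate 1, and neither was called.

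**Figure D4:**
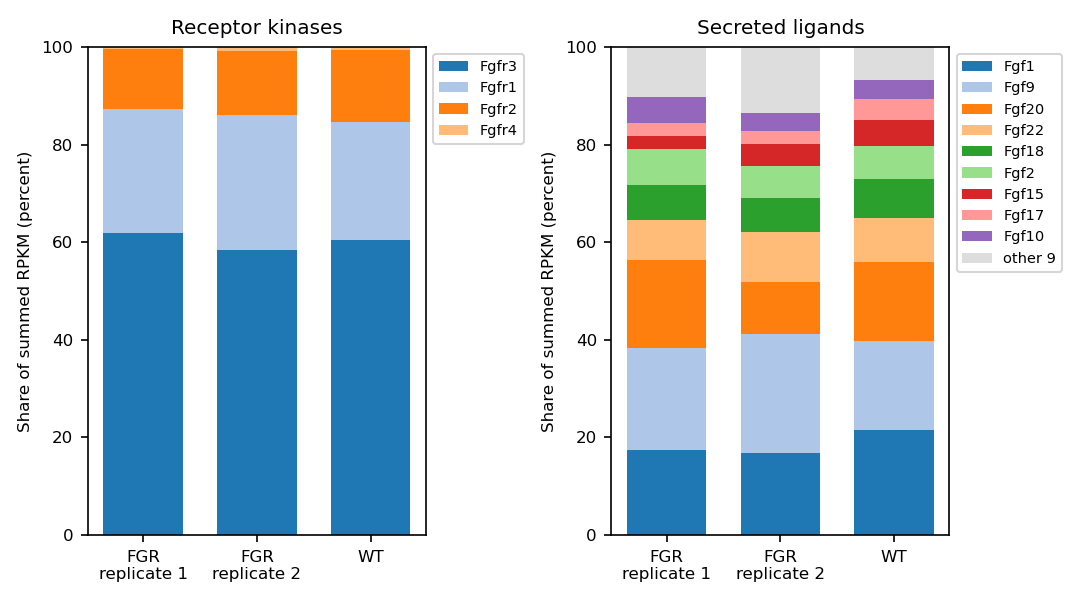
Share of each gene in the summed RPKM of the 4 receptor kinases (left) and of the 18 secreted ligands (right) in FGR replicate 1, FGR replicate 2 and WT. Fgfr3 takes 58.4% to 61.8% of the receptor sum in every library, while among ligands the share of Fgf1 is smaller and that of Fgf9 larger in both FGR libraries than in WT.

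The 4 receptor kinase genes stood in the same order by RPKM in the 3 libraries, from Fgfr3 through Fgfr1 and Fgfr2 to Fgfr4. Fgfr3, a receptor of radial glia and astrocytes, had 74.0 and 71.4 CPM in FGR and 73.8 CPM in WT. WT lay between the FGR libraries, and the log2 fold change was -0.02 ± 0.06 (SE) with a 95% interval from -0.16 to 0.11. It made up 61.8% and 58.4% of the summed receptor RPKM in FGR and 60.5% in WT. Fgfr1, the receptor with the broadest expression in neurons and progenitors, had 42.1 and 46.8 CPM in FGR and 40.5 CPM in WT (log2 fold change 0.13 ± 0.08 (SE), edgeR adjusted p = 0.440). Fgfr2, found mostly in glia, had 21.3 and 23.0 CPM in FGR and 25.8 CPM in WT, with both FGR libraries below WT (log2 fold change -0.22 ± 0.11 (SE), edgeR adjusted p = 0.314). The ratio of Fgfr1 to Fgfr2 was 2.07 and 2.13 in FGR and 1.64 in WT on the RPKM scale. Fgfr4 was scarce, at 14 and 24 counts in FGR and 26 in WT. Fgfrl1, a receptor without the kinase domain, had 5.96 and 5.77 CPM in FGR and 6.61 CPM in WT. The astrocyte and radial glia list had a median log2 fold change of -0.36, and its members Aqp4 and Gfap were called lower (log2 fold changes -0.57 and -1.28), while Slc1a3 was at -0.08 and Aldoc at 0.03. The oligodendrocyte precursor list had a median of -0.39. Fgfr3 and Fgfr2 are set beside these values without a test between them.

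Among the FGF genes, those whose transcripts follow ERK signalling were at similar levels in all libraries. Dusp4, a phosphatase of ERK outside this set, was called higher in FGR and is given below. Dusp6, the phosphatase that inactivates ERK, had 25.0 and 26.5 CPM in FGR and 27.7 CPM in WT. Both FGR libraries were below WT, FGR replicate 2 nearer to WT than to FGR replicate 1, and the log2 fold change was -0.11 ± 0.10 (SE, edgeR adjusted p = 0.640) with a 95% interval from -0.33 to 0.11. Spry1 had 10.7 and 10.5 CPM in FGR and 12.5 CPM in WT (log2 fold change -0.24 ± 0.14 (SE), edgeR adjusted p = 0.382). Spry2 had 11.4 and 12.9 CPM in FGR and 13.4 CPM in WT. Spry4 had 8.05 and 10.7 CPM in FGR and 9.79 CPM in WT, with WT between the FGR libraries. No row carries the symbol Spry3, so it was not analysed here.

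Spred proteins block RAS activation together with neurofibromin. Spred1 had 122.3 and 123.8 CPM in FGR and 122.9 CPM in WT, a log2 fold change of 0.00 ± 0.07 (SE) with a fold interval from 0.905 to 1.11. Its sign turned with the scaling between libraries (-0.04 with library totals alone). Spred2 had 10.7 and 10.2 CPM in FGR and 12.2 CPM in WT, and Spred3 had 47.4 and 46.1 CPM in FGR and 44.4 CPM in WT. Spred3 was the only one of the 7 feedback inhibitors with both FGR libraries above WT under the main scaling, and its log2 fold change was 0.07 ± 0.07 (SE).

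The ETS factor genes varied by less than 1.5-fold within their intervals. Etv4 had 15.2 and 16.4 CPM in FGR and 18.5 CPM in WT, with both FGR libraries below WT (log2 fold change -0.23 ± 0.12 (SE), edgeR adjusted p = 0.348). Etv5 had 24.1 and 28.8 CPM in FGR and 26.9 CPM in WT, and Etv1, which also marks subsets of neurons, had 11.6 and 10.8 CPM in FGR and 11.4 CPM in WT. For both of these WT lay between the FGR libraries. Summed over Dusp6, Spry1, Spry2, Spry4, Etv4 and Etv5, the level was 94.5 and 105.8 CPM in FGR and 109.0 CPM in WT, so the gap between the FGR libraries was wider than that of FGR replicate 2 to WT. All 10 feedback and target genes had intervals within 1.5-fold, 8 had a negative and 2 a positive log2 fold change (Spred1, one of these 2, was negative with RLE scaling or library totals), and their median was -0.09.

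The intracellular FGFs, which bind voltage-gated sodium channels and, in the case of Fgf13, microtubules, were the most abundant group by RPKM. Fgf12 had 61.7 and 59.3 CPM in FGR and 68.5 CPM in WT. The FGR libraries lay close together below WT, and the log2 fold change was small at -0.18 ± 0.06 (SE, unadjusted p = 0.0149, edgeR adjusted p = 0.146). The adjusted p of Fgf12 ranged from 0.0693 to 0.638 over 7 alternatives. Fgf13, which is X-linked, had 77.7 and 69.5 CPM in FGR and 78.8 CPM in WT. Its lowest value was in the male library, FGR replicate 2. The same held for the autosomal Fgf12 and Fgf14, but not for Fgf11. Fgf14, the gene mutated in a human spinocerebellar ataxia, had 55.9 and 46.5 CPM in FGR and 52.3 CPM in WT. Fgf11 had 13.3 and 14.7 CPM in FGR and 15.7 CPM in WT. The log2 fold changes of all 4 were below 0, between -0.18 and -0.03, although without FGR replicate 2 that of Fgf14 was 0.095.

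In a list of 34 other genes of the pathway (co-receptors, adaptors, the RAS and ERK cascade, further phosphatases, and matrix proteins that handle FGFs), 1 rose and 3 fell, against 1.66% called higher and 2.59% called lower over all genes tested. Dusp4, another phosphatase of ERK and related kinases, rose to 64.2 and 61.7 CPM in FGR, against 45.8 CPM in WT (log2 fold change 0.46 ± 0.07 (SE), edgeR adjusted p = 0.00193). It was the pathway gene that DESeq2 also called (adjusted p = 0.0121), and its adjusted p was below 0.05 in each of the 7 alternatives. Fgfbp1, a secreted carrier that frees FGFs from the matrix, fell to 2.40 and 2.71 CPM in FGR, against 5.76 CPM in WT (log2 fold change -1.18 ± 0.18 (SE), edgeR adjusted p = 0.00254; adjusted p = 0.0614 in DESeq2). Of 8 endothelial genes 4 were called lower, with sums of 139.2 and 141.5 CPM in FGR and 182.2 CPM in WT, and their part in the Fgfbp1 value was not tested. Sulf1, an enzyme that trims sulphate from heparan sulphate, fell to 25.0 and 23.5 CPM in FGR, against 33.6 CPM in WT (log2 fold change -0.47 ± 0.10 (SE), edgeR adjusted p = 0.0161; adjusted p = 0.0741 in DESeq2). Map2k2, which encodes the kinase MEK2 upstream of ERK, fell to 63.3 and 57.8 CPM in FGR, against 74.4 CPM in WT (log2 fold change -0.30 ± 0.07 (SE), edgeR adjusted p = 0.0264). Map2k2 was not called by DESeq2 (adjusted p = 0.231), by limma-voom (adjusted p = 0.0536) or by edgeR under a minimum count of 50 (adjusted p = 0.0563).

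**Figure D5:**
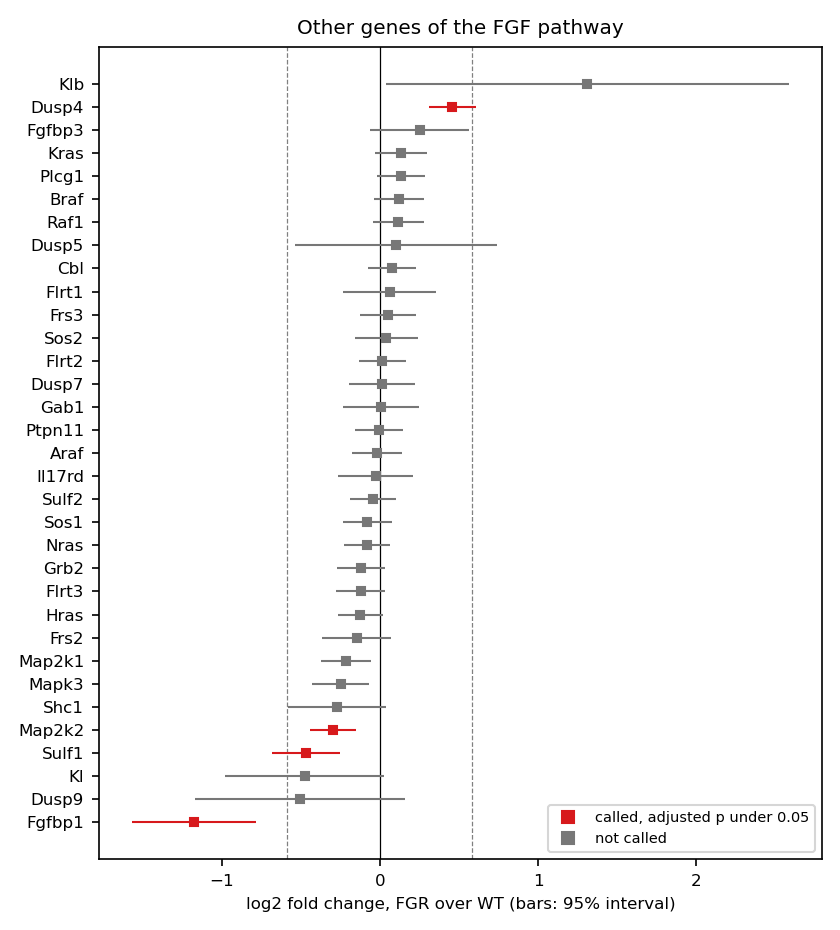
Log2 fold change of FGR over WT with the 95% interval for other genes of the FGF pathway, ordered by value, with called genes in red and dashed lines at 1.5-fold. Dusp4 lies right of 0 and Map2k2, Sulf1 and Fgfbp1 left of it. Map2k1 and Mapk3, of the same kinase cascade as Map2k2, also lie left of 0 with intervals that do not reach it, but were not called. Klb lies right of 0 with an interval that does not reach it, and was not called either.

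The other 30 pathway genes were not called, and 27 of all 34 had intervals within 1.5-fold. Mapk3, which encodes ERK1, had 35.7 and 33.7 CPM in FGR and 41.2 CPM in WT (edgeR adjusted p = 0.122). Map2k1, which encodes the kinase MEK1, had 47.0 and 43.4 CPM in FGR and 52.4 CPM in WT (edgeR adjusted p = 0.132). For both genes the FGR libraries were below WT, the direction in which Map2k2 was called. Klb, the co-receptor for the endocrine FGF15 and FGF21, had 30 and 23 counts in FGR and 11 in WT, and the fitted log2 difference was 1.31 ± 0.59 (SE, edgeR adjusted p = 0.257). Kl, the co-receptor for FGF23, had 1.96 and 2.82 CPM in FGR and 3.31 CPM in WT. The median log2 fold change of the list was -0.01.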

How the data were processed

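Libraries were made from Trizol-extracted RNA with a TruSeq RNA kit, per the labels' protocols, and the aligner HISAT2 comes from the submitters' processing notes. The sources used here name no version, genome build, counter or strand setting. Each deposited file gives raw read counts per gene, a gene length (a fixed number of bases per gene, other than a measurement) and RPKM values, which the authors computed from these. The deposited RPKM equalled count over length and total to within 5e-04 percent and served for levels between genes and shares within a library. The count test ran in edgeR 4.0.16 under R 4.3.3 (TMM scaling, a minimum count of 10 in filterByExpr, two-sided quasi-likelihood test, Benjamini-Hochberg over 25561 genes, threshold 0.05). Standard errors are the log2 fold change over the root of F, and 95% intervals used 1 residual plus 13 prior degrees of freedom. The filter removed 5 of 37 FGF genes. Counting intervals and the floor of 3 counts cover counting error only. Exons of 11 FGF genes overlap another gene in GENCODE M21, among them Fgf15, Fgfr3 and Spry1 with opposite-strand transcripts, whose reads cannot be told apart without strand. Tests were tried on simulated data. Alternatives were RLE scaling, library totals, no filter, a minimum count of 50, DESeq2 1.42.0, limma-voom 3.58.1, a robust fit and each FGR library left out. The members, lists and tests were chosen with earlier results of these data known. All members are named; called genes were named from the pathway list, of which 1 other gene is not reported here or drawn, with Mapk3, Map2k1, Klb and Kl added after their values were seen.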

Additional observations from a re-analysis of the deposited data

How the results depend on the processing

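No paired analysis was possible because the labels link no FGR library to the WT library, and there was only 1 WT library. The count of FGF genes called higher was 0, and 1 with no filter on low counts (Fgf3, log2 fold change 1.25, adjusted p = 0.0129). The count called lower was 0 under all 7 alternatives with a test. Among other pathway genes, 4 were called, and 1 in DESeq2 (Dusp4). The median log2 fold change of the FGF genes ranged from -0.15 without FGR replicate 2 to -0.07 without FGR replicate 1. Over the 7 alternatives with a test 9 FGF gene values changed sign, all of Spred1 or Fgf22: with library totals -0.038 for both genes, with RLE scaling -0.002 and -0.003, with no filter -0.013 and -0.014, in limma-voom -0.032 for Fgf22, and for Spred1 -0.004 under a minimum count of 50 and -0.002 in DESeq2. Library totals moved the median of all genes tested to -0.03. Leaving out an FGR library left 1 against 1, a value with no test, and the sign turned for 5 FGF genes without FGR replicate 1 (Fgf2, Fgf10, Fgfr4, Spry4 and Etv5, to values from -0.010 to 0.134) and for 6 without FGR replicate 2 (Fgf14, Fgf20, Fgf22, Fgfr3, Spred1 and Etv1, from -0.245 to 0.095), the 11 genes with WT between the FGR libraries. Depth limits Fgf8, Fgf16, Fgf21 and Fgfr4, and the absence of a second WT library limits every comparison.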
